A study of Mus musculus with 52 samples.

Results

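The cell proliferation genes described here are Mki67, Top2a, Cdk1, Ccna2, Ccnb1, Birc5, Mcm5, Mcm6, Rrm2 and Pcna, a fixed list of 10 of the 55401 mouse genes in the deposited count table. They were chosen by name, but with earlier results of these data known. All 10 passed the filter on low counts in every tissue, 3 of them in muscle only through the transgenic arms. They were measured by sequencing of poly(A) RNA in 3 tissues (skeletal muscle, spinal cord and cerebral cortex) and 3 arms of mice. The first arm was wild-type FVB/NJ mice (labelled FVB_WT) given vehicle. The second was mice of genotype PFN1_C71G, a transgenic model of amyotrophic lateral sclerosis (ALS) with mutant human profilin 1, given vehicle. The third was PFN1_C71G mice given AAV-amiR-Atxn2, an adeno-associated virus that carries an artificial microRNA (amiR) against Atxn2. There were 52 libraries, 18 from spinal cord and 17 each from cortex and muscle. Each arm had 6 in a tissue, apart from wild-type cortex and vehicle-treated transgenic muscle, which had 5. All wild-type mice were 36 weeks old, and 11 of the transgenic libraries came from mice of 38 or 39 weeks. Both sexes were present in each arm. The labels do not give the promoter of the transgene, the dose, route or age of injection, or which tissues came from the same animal, and no arm received a control vector. They do not say how the libraries of an arm were obtained beyond their number, age and sex, so p-values measure the spread between these samples.

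Dividing cells copy their DNA in S phase and separate the copies in mitosis, and each step needs proteins that resting cells hardly make. Transcription of S phase genes is released by E2F factors, and that of the later genes by B-MYB and FOXM1 complexes that act through a short promoter element, the CHR, often beside CCAAT boxes. Neurons and muscle fibres have left the cycle for good. In the adult spinal cord and cortex the cells that still divide are mainly glia and oligodendrocyte precursors, and in muscle mainly satellite cells, mesenchymal cells and immune cells. In a homogenate of a whole tissue, more dividing cells and more RNA of a gene in each cell cannot be told apart.

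As examples that hold the motifs of the later and of the earlier genes, the bases upstream of the RefSeq start of Mki67 and Top2a (mitosis) and of Mcm5 and Mcm6 (DNA replication) are printed from RefSeq on the build GRCm38.p6, 5′ to 3′ on the strand of the gene. They are chr7:135716380-135716629 (minus strand), chr11:99024190-99024439 (minus), chr8:75109259-75109508 (plus) and chr1:128359706-128359955 (minus), in that order. Capitals mark matches to 3 motifs on either strand.
Mki67: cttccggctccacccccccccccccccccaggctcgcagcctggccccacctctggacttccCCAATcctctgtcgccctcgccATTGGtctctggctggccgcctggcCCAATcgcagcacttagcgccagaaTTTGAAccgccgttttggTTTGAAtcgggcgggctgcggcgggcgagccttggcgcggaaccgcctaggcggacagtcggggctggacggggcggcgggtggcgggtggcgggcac
Top2a: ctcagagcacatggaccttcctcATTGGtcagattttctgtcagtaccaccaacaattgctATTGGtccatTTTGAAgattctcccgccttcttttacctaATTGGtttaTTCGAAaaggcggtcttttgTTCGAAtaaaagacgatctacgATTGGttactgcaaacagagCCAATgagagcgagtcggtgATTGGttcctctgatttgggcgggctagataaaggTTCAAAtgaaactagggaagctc
Mcm5: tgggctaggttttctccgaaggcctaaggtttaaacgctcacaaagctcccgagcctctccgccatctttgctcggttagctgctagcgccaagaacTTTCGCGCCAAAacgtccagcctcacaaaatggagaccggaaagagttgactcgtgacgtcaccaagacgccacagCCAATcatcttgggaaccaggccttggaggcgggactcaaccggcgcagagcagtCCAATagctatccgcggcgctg
Mcm6: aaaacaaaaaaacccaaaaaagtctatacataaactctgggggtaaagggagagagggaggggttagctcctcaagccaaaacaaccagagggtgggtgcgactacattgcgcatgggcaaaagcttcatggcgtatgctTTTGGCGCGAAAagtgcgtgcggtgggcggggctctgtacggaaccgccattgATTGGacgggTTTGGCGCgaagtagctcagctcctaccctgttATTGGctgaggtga
The CHR was searched as TTTGAA or TTCGAA, the CCAAT box as CCAAT, and the E2F site as TTTGGCGC, TTTCCCGC, TTTGCCGC or TTTCGCGC. Mki67 held 2 CHR and 3 CCAAT matches and Top2a held 4 and 6, with no E2F match in either. Mcm5 held 2 CCAAT matches and 2 E2F matches that overlap each other, and Mcm6 held 2 CCAAT and 3 E2F matches, of which 2 overlap. Of the 10 genes, 9 had an entry in the promoter table. Over the 250 bases upstream of the RefSeq start, a CHR was found in 3 of 9, a CCAAT box in 8 of 9 and an E2F site in 3 of 9. The split by phase did not hold for all: Birc5 and Ccnb1 held no CHR, Cdk1 held an E2F site beside its CHR, and Rrm2 and Pcna held no E2F site. Of the further lists, a CHR was found in 9 of 34 mitosis and 5 of 25 replication genes, and an E2F site in 0 of 34 and 5 of 25. Of all 27025 promoters in the table, 17.4% held a CHR, 34.5% a CCAAT box and 1.91% an E2F site. A match is a stretch of letters, and binding was not measured.

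The libraries held 66481847 to 111885232 counts each. Levels are in CPM, the count of a gene relative to the total of its library, scaled by trimmed mean of M-values (TMM) within a tissue, log2 fold changes were estimated with edgeR's quasi-likelihood fit on arm and sex, and a gene is called at a Benjamini-Hochberg adjusted p under 0.05 over all genes tested in the tissue. In spinal cord, Atxn2 was at 106 ± 2.68 CPM (SD, n = 6) with vehicle and 72.5 ± 0.859 CPM (n = 6) with the amiR in transgenic mice, a log2 change of −0.55 (SE 0.03, adjusted p = 8.14e-08). In cortex and muscle it was not called between these arms. Human PFN1 reached at most 0.0143 CPM in any wild-type library and 170 to 1613 CPM in the transgenic ones. For 4 spinal cord libraries (numbers 5 and 6 of the vehicle-treated and 1 and 2 of the amiR-treated transgenic arm) the library name gives the opposite treatment to the title. Counts of the vector element were 0 and 0 in the former and 743 and 828 in the latter, as the titles have it. The element reached 743 to 1637 counts in amiR-treated spinal cord and 367 to 1257 in amiR-treated cortex, but 0 to 1 in amiR-treated muscle, where Atxn2 was at 60.4 ± 5.72 CPM (n = 6) against 59.1 ± 2.72 CPM with vehicle (n = 5). In spinal cord, vehicle-treated transgenic against wild type and amiR against vehicle are also given without the 4 libraries. Other results that use these libraries are not. Summed markers of skeletal muscle fibres were at 43857 CPM or more in each muscle library and at 529 CPM or less in spinal cord and cortex, and summed neuronal markers were at 3564 CPM or more in spinal cord and cortex and at most at 8.79 CPM in muscle, so the tissues carried their defining markers.

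In wild-type mice these were genes of low abundance, with 1 exception. Pcna, the sliding clamp of DNA polymerases that also serves in DNA repair, stood at 12.1 (spinal cord), 10.1 (cortex) and 12.8 (muscle) CPM per kilobase of exon when the 52 libraries were scaled together. None of the other genes had a mean above 0.780 CPM per kilobase on this scale in any of the wild-type tissues, the value of Rrm2 in muscle. Scaled within spinal cord, Pcna stood at 15.7 CPM per kilobase, and the order of the levels after it was Mcm5 (0.617), Ccna2 (0.488), Birc5 (0.404), Rrm2 (0.394), Mcm6 (0.282), Mki67 (0.201), Cdk1 (0.132), Top2a (0.124) and Ccnb1 (0.0678). Neighbours such as Birc5 and Rrm2, and Cdk1 and Top2a, differed by less than their spread between libraries. Ccna2 shares exonic bases with another gene, Exosc9, as described below, so its level and rank are uncertain. In a joint fit of the 52 libraries over 22316 genes, of which 85.8% were called between wild-type muscle and spinal cord (37% higher and 48.8% lower in muscle), 7 of the 10 genes were lower in muscle (Mki67, Top2a, Cdk1, Ccna2, Ccnb1, Birc5, Mcm5) and 1 was higher. The latter was Rrm2, the small subunit of ribonucleotide reductase, by 1.24 on the log2 scale. With scaling by library size alone that value was −0.0094, and Mcm6 and Pcna, which were not called with TMM (0.05 and 0.09), were at −1.19 and −1.17. The median of all genes moved as well, from −0.35 with TMM to −1.59, and the median of the 10 genes lay 1.02 below it with TMM and 1.01 below it with library size alone. Between muscle and cortex, where 86.3% of genes were called (36.4% higher, 50% lower), 5 were lower in muscle (Top2a, Ccna2, Ccnb1, Birc5, Mcm5) and 2 higher (Rrm2 by 1.69 and Pcna by 0.35). With library size alone Pcna was at −0.88, Rrm2 lost its call (0.47), and Mki67 (−1.97), Cdk1 (−1.22) and Mcm6 (−1.65) were called lower as well. Between spinal cord and cortex, where 60.9% were called (29.8% higher, 31% lower), Cdk1 (1.44) and Pcna (0.26) were higher in spinal cord, Ccna2 (−0.52) and Mcm5 (−0.40) were lower, and 6 were not called.

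In spinal cord all 10 genes were higher in vehicle-treated transgenic mice than in wild-type mice, by 1.31- to 4.83-fold (median 2.47-fold). Of all 20307 genes tested, 36.8% were called in this comparison (18.8% of all genes as higher), and the median log2 change was 0.00 over all genes and 1.31 over the 10. The mitotic genes Top2a, Ccnb1 and Mki67 had the largest changes of the 10 and Pcna the smallest. For 5 of them, Top2a, Ccnb1, Mcm5, Mcm6 and Pcna, no transgenic library overlapped a wild-type one, which was so for 11.8% of all genes with the transgenic arm higher and 22.9% in either direction.

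**Figure D1:**
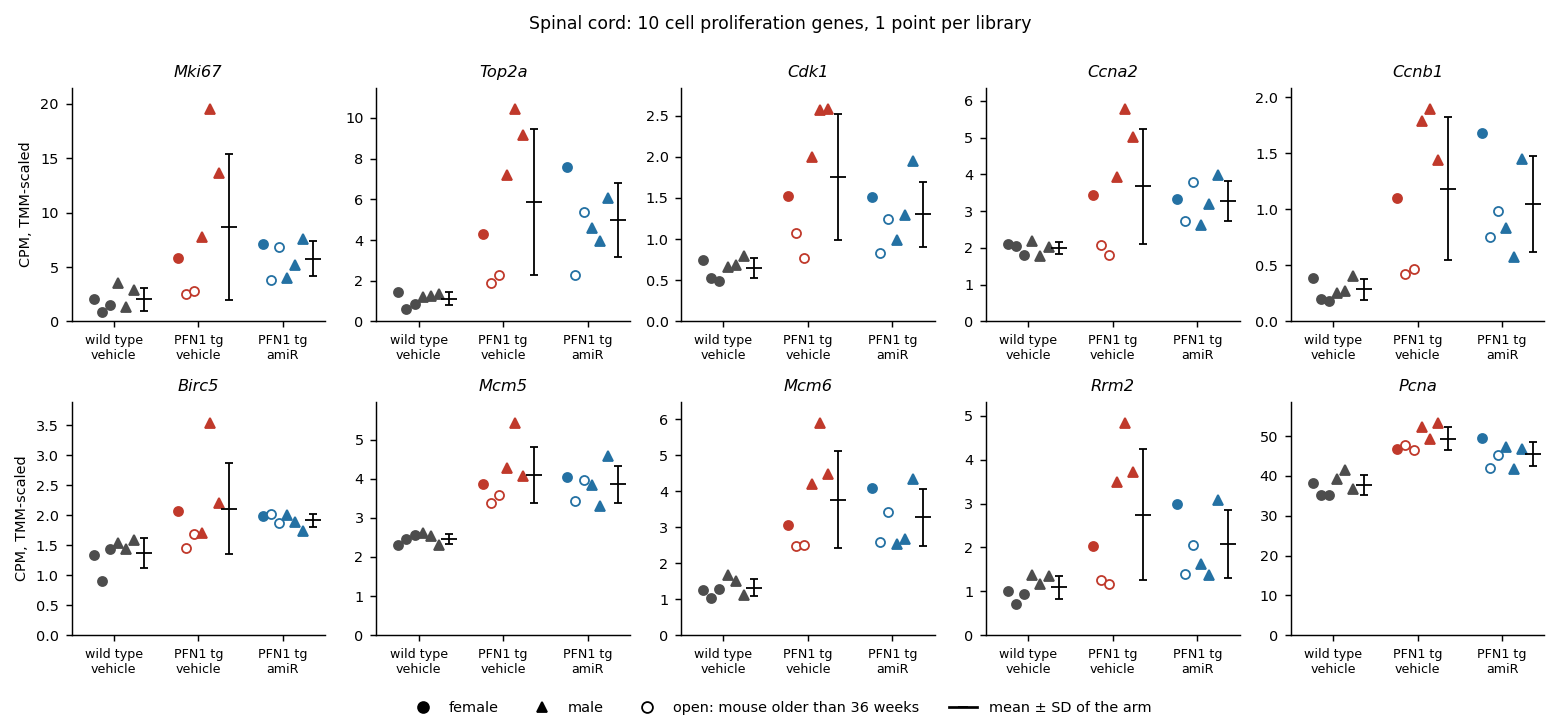
Levels of the 10 cell proliferation genes in spinal cord, in TMM-scaled CPM on a linear axis, 1 point per library by arm (circles female, triangles male, open points from mice older than 36 weeks), with the mean ± SD of each arm. The means of both transgenic arms lie above that of wild type for each gene, vehicle-treated and wild-type libraries overlap for 5 genes, and libraries 5 and 6 of the vehicle-treated transgenic arm are the 2 highest for Mki67 and Top2a.

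Of the S phase genes, Mcm6, a subunit of the helicase that opens the DNA at replication forks, was at 1.05 to 1.67 CPM in wild-type spinal cord (median 1.27) and at 2.47 to 5.90 CPM in the transgenic one (median 3.63). Its mean rose from 1.32 ± 0.235 to 3.77 ± 1.34 CPM (SD, n = 6 each), a log2 change of 1.48 (SE 0.19, adjusted p = 1.38e-05). Each transgenic library was above each wild-type one. Mcm5, another subunit of the same helicase, was at 2.30 to 2.60 CPM (median 2.50) and 3.38 to 5.43 CPM (median 3.96), again without overlap, and changed by 0.73 (SE 0.10, adjusted p = 2.58e-05). Rrm2, which makes deoxynucleotides for replication, was at 0.714 to 1.37 CPM (median 1.09) and 1.17 to 4.84 CPM (median 2.76), and changed by 1.25 (SE 0.29, adjusted p = 0.00229). For Rrm2 the arms overlapped through the older females, numbers 2 and 3, at 1.25 and 1.17 CPM. Pcna was at 35.2 to 41.5 CPM (median 37.4) and 46.4 to 53.3 CPM (median 48.5). Its change was small and tight, 0.39 (SE 0.05, adjusted p = 1.12e-05), and the arms did not overlap.

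Ccna2, cyclin A2, which acts from S phase into mitosis, was at 1.77 to 2.20 CPM in wild-type libraries (median 2.04) and 1.82 to 5.78 CPM in transgenic ones (median 3.68). The change was 0.83 (SE 0.21, adjusted p = 0.00432), and transgenic libraries 2 and 3 lay within the wild-type range. Exons of Ccna2 share 510 of their 4083 bases with those of Exosc9 on the opposite strand, a gene whose counts summed to 11.9 times those of Ccna2. No source used here gives the strand setting of the counting, so reads in that stretch cannot be told apart. Exosc9 itself changed by 0.02 here (adjusted p = 0.76).

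Cdk1, the kinase that drives entry into mitosis, was at 0.492 to 0.797 CPM in wild-type libraries (median 0.671) and at 0.769 to 2.58 CPM in transgenic ones (median 1.76), a change of 1.36 (SE 0.23, adjusted p = 0.000167). Ccnb1, cyclin B1, its partner, was at 0.187 to 0.410 CPM (median 0.264) and 0.421 to 1.90 CPM (median 1.27), a change of 1.97 (SE 0.37, adjusted p = 0.00043) without overlap. Both are low: Ccnb1 had a mean of 0.286 ± 0.0939 CPM in wild type. Top2a, the topoisomerase that untangles chromosomes, was at 0.619 to 1.45 CPM (median 1.22) and 1.89 to 10.4 CPM (median 5.76). Its mean went from 1.11 ± 0.32 to 5.88 ± 3.59 CPM, a log2 change of 2.27 (SE 0.36, adjusted p = 9.51e-05), and the arms did not overlap. Birc5, survivin, a part of the chromosomal passenger complex, was at 0.904 to 1.58 CPM (median 1.45) and 1.45 to 3.54 CPM (median 1.89), and changed by 0.61 (SE 0.17, adjusted p = 0.00851). It had the smallest change of the mitotic genes.

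Mki67, the nuclear protein Ki-67 that is used as a marker of cycling cells, was at 0.833 to 3.52 CPM in wild-type libraries (median 1.75) and at 2.55 to 19.5 CPM in transgenic ones (median 6.83). The mean went from 2.02 ± 1.03 to 8.71 ± 6.69 CPM, a log2 change of 1.97 (SE 0.39, adjusted p = 0.000774). The 6 transgenic values were 5.87, 2.55, 2.80, 7.80, 19.5 and 13.7 CPM for libraries 1 to 6, so that the females of numbers 2 and 3, both 39 weeks old, lay within the wild-type range and the males of numbers 5 and 6 were the highest. Those 2 males are among the libraries with conflicting names. Without the 4 libraries of conflicting names, 8 of the 10 genes were called, with Mki67 at 1.35 and Top2a at 1.86. Ccna2 (0.51, adjusted p = 0.0590) and Birc5 (0.36, adjusted p = 0.0698) were then not called. The share of all genes called without these libraries is not set beside this count.

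Other genes of the cycle rose in the same comparison. Of 30 further replication genes, 18 were higher and 0 lower (median 0.26), and of 40 further mitosis genes, 30 were higher and 1, Racgap1 (−0.24), was lower (median 0.93), a call that was lost with scaling by library size alone (35 higher, 0 lower). Uhrf1, which carries DNA methylation over to the new strand, rose from 1.06 to 3.10 CPM, a log2 change of 1.50 (adjusted p = 3.91e-05), and Mcm3, another helicase subunit, by 0.97 (adjusted p = 1.68e-07). Pbk, a mitotic kinase, rose by 2.96 (adjusted p = 3.89e-05), Aurkb, the kinase of the passenger complex, by 2.22 (adjusted p = 2.44e-05), and Cenpa, the centromeric histone, by 1.35 (adjusted p = 5.96e-06). Of 8 cyclins and kinases of G1, 6 were higher and 1 lower, with Ccnd1, cyclin D1, going from 30.9 ± 2.79 to 63.8 ± 9.04 CPM (1.04, adjusted p = 3.49e-06) and Ccne1, cyclin E1, falling by 0.31, a call that was lost without the 5 libraries richest in bone marrow markers described below. Of 12 transcription factors of the cycle, 5 were higher and 1 lower. Myc rose by 1.15 (adjusted p = 8.78e-07) and Foxm1 by 0.62 (adjusted p = 3.81e-05), and E2f1 fell by 0.50 (adjusted p = 0.00075). Inhibitors of the cycle did not fall: of 12, 6 were higher and 0 lower, with Cdkn2a, which encodes p16 and p19, at 0.122 CPM in wild type and 0.621 CPM in transgenic mice (2.35, adjusted p = 0.000231) and Cdkn1a, p21, at 23.6 and 40.3 CPM (0.78, adjusted p = 0.000877).

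**Figure D2:**
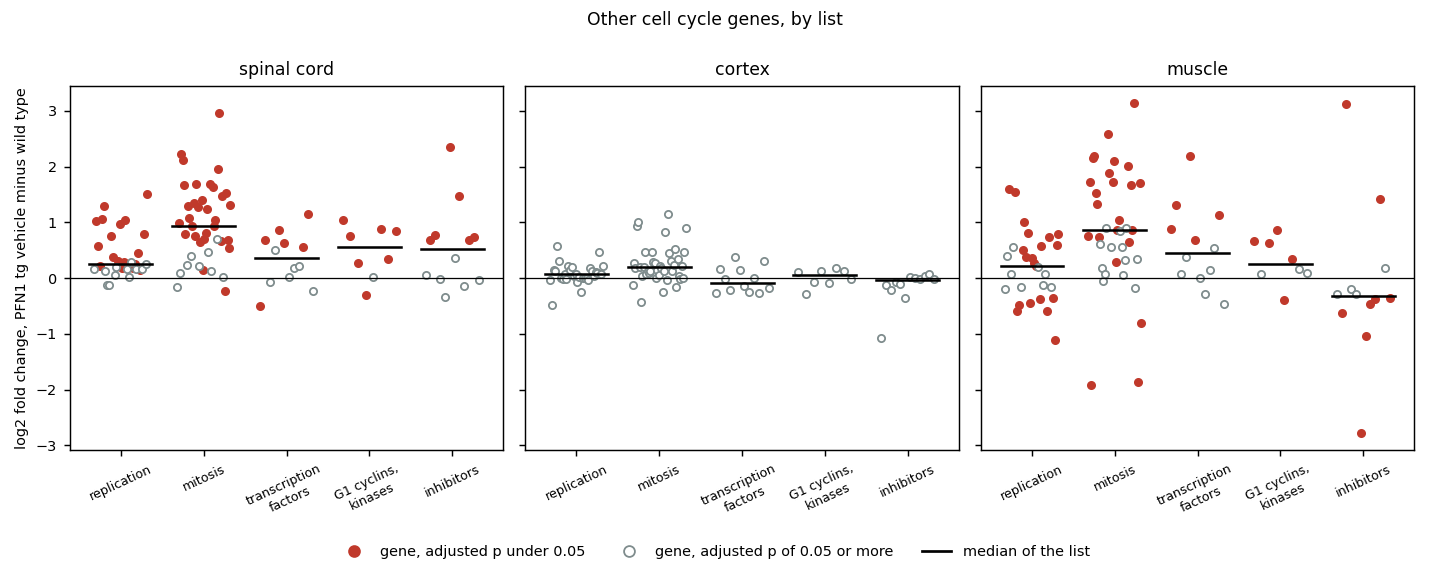
Log2 fold change between vehicle-treated transgenic and wild-type mice for 5 further lists of cell cycle genes in each tissue, 1 point per gene, filled where the adjusted p is under 0.05, with a line at the median of the list. The mitosis list has medians of 0.93 in spinal cord and 0.86 in muscle, against 0.19 in cortex, and inhibitors lie on both sides of 0 in muscle.

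Markers of other cell types moved in the same libraries. All 10 markers of microglia and macrophages were higher in vehicle-treated transgenic spinal cord than in wild type (median 2.18), with summed levels of 151 to 223 CPM in wild type, 663 to 827 CPM with vehicle and 305 to 813 CPM with the amiR, and none of them at 0. Of 10 T cell markers, 9 were tested and all 9 were higher, from sums of 0.955 to 1.45 CPM to 1.93 to 3.08 CPM, a low level. Oligodendrocyte precursor markers had 3 of 8 higher and 1 lower, from 316 to 370 CPM to 381 to 428 CPM, and astrocyte markers had 4 of 8 higher and 1 lower. Neuronal markers had 4 of 6 lower, from 4801 to 5261 CPM to 3682 to 3971 CPM. Resting microglia markers had 5 of 8 higher and 0 lower (248 to 329 CPM in wild type, 582 to 728 CPM with vehicle). Neuroblast markers had 2 of 5 tested higher, Nes (1.21) and Igfbpl1 (2.61), and 1 lower, with sums that went from 46.6 to 50.3 CPM to 64.7 to 98.5 CPM. B and plasma cell markers had 3 of 7 higher, at sums of at most 4.87 CPM. Endothelial markers had 0 of 7 higher and 1 lower, at 220 to 245 CPM and 202 to 248 CPM. The part of each of these cell types in the change of the proliferation genes was not tested.

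Markers of bone marrow progenitors, which divide fast and lie in the vertebrae around the cord, varied between spinal cord libraries. Of 10, 9 were tested and none was called between the arms, with a median log2 difference of 1.23. Their sum ran from 1.01 to 29.8 CPM in wild type, 7.81 to 83.2 CPM in vehicle-treated and 3.97 to 21.8 CPM in amiR-treated transgenic libraries, and exceeded 20 CPM in 5 libraries. These were numbers 4 and 6 of wild type (29.8 and 22.7 CPM), numbers 5 and 6 of the vehicle-treated arm (83.2 and 27.9 CPM) and number 2 of the amiR-treated arm (21.8 CPM). Without these 5 libraries, a choice made after the data were seen, 8 of the 10 genes were called higher, with Mki67 at 1.72 and Top2a at 1.88. Ccna2 (0.54, adjusted p = 0.0869) and Birc5 (0.43, adjusted p = 0.0543) were not. With the log2 of the marrow sum as a covariate, also added after the data were seen, 9 were called and Mki67 was at 1.45. The shares of all genes called in these fits are not set beside the counts.

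**Figure D3:**
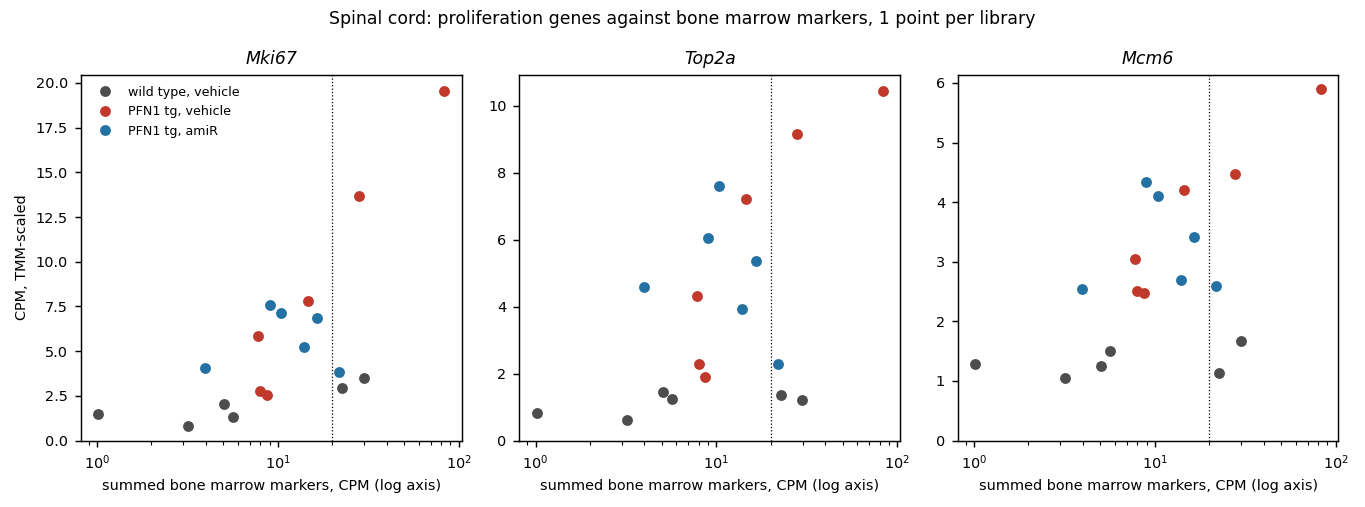
Mki67, Top2a and Mcm6 in CPM against the summed CPM of bone marrow progenitor markers (log axis) in the 18 spinal cord libraries, coloured by arm, with a dotted line at 20 CPM. The vehicle-treated transgenic library at 83.2 CPM of marrow markers has the highest value of each of the 3 genes, and for Mcm6 the transgenic libraries on both sides of the line (2.47 CPM or more) lie above the wild-type ones (1.67 CPM or less).

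Between amiR and vehicle in transgenic spinal cord, none of the 10 genes was called by edgeR or by DESeq2, against 5.11% of all genes by edgeR, and 1 had an unadjusted p under 0.05. All 10 estimates were negative, from −0.36 for Cdk1 to −0.06 for Ccnb1 and Top2a, with a median of −0.12 against 0.00 over all genes. Mki67 was at 3.83 to 7.56 CPM with the amiR (median 6.05), within the wide range of the vehicle arm, and its difference was −0.32 with a 95% interval of −1.14 to 0.49. Top2a was at 2.28 to 7.59 CPM (median 4.97), with a difference of −0.06 (−0.78 to 0.66). The interval of Cdk1 ran from −0.83 to 0.11, that of Mcm6 from −0.54 to 0.25 and that of Rrm2 from −0.84 to 0.35. Pcna, at 41.8 to 49.5 CPM with the amiR (median 46.0), had the tightest estimate, −0.12 (−0.22 to −0.01, adjusted p = 0.166). It was called only where number 1 of the amiR arm was left out (−0.15, adjusted p = 0.0353). No gene had arms without overlap, which 2.23% of all genes had.

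The sign of these small differences rested on a few libraries. Without the 4 libraries of conflicting names, the difference was 0.13 for Mki67 and 0.19 for Top2a. Without the 5 libraries over 20 CPM of marrow markers it was 0.35 and 0.46, and 8 of the 10 were positive. Without mice older than 36 weeks it was −0.86 and −0.43. No member was called in any of these.

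Of the other cell cycle lists, 2 genes were called between amiR and vehicle in spinal cord. Rfc5, a subunit of the loader that places PCNA on DNA, fell by 0.29 (adjusted p = 0.0365), from 4.00 ± 0.235 to 3.26 ± 0.38 CPM. Cdk4, the kinase partner of D cyclins, fell by 0.18 (adjusted p = 0.0437), from 36.3 ± 1.55 to 32.1 ± 2.20 CPM. Neither call was stable: of 24 other settings Rfc5 lost its call in 18 and Cdk4 in 17, library size alone among them in both cases.

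Compared with wild type, the amiR-treated spinal cord had all 10 genes higher, with a median log2 change of 1.00 (2.01-fold) against 25.5% of all genes called (14.6% as higher). For all 10 no amiR-treated library overlapped a wild-type one, against 7.12% of all genes with the treated arm higher and 12.6% in either direction. These 2 comparisons with wild type share the wild-type libraries. The changes were 2.21 for Top2a (adjusted p = 0.000203), 1.91 for Ccnb1, 1.65 for Mki67 (adjusted p = 0.00475), 1.34 for Mcm6 (adjusted p = 7.48e-05), 1.01 for Cdk1, 1.00 for Rrm2, 0.72 for Ccna2, 0.65 for Mcm5, 0.49 for Birc5 (adjusted p = 0.0399) and 0.27 for Pcna. Birc5 was close to the threshold: it lost its call when any of wild-type numbers 1, 2, 4, 5 and 6 or amiR-treated numbers 1 to 4 was left out, at 0.41 to 0.51. Exosc9 rose by 0.18 here (adjusted p = 0.00105), a gene with which Ccna2 shares exonic bases. Of the further lists, 14 of 30 replication genes and 24 of 40 mitosis genes were higher, 0 and 1 were lower, and macrophage markers were higher in 10 of 10.

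Levels were also compared between the sexes. In vehicle-treated transgenic cord the females had Mki67 at 2.55 to 5.87 CPM and the males at 7.80 to 19.5 CPM, without overlap, and the same order was seen for Top2a (1.89 to 4.31 against 7.22 to 10.4 CPM). The highest males for both genes, numbers 5 and 6, have conflicting names and held 83.2 and 27.9 CPM of bone marrow markers. The sexes were not compared without them, and the share of all genes without such overlap was not counted. With the amiR, females were at 3.83 to 7.11 CPM and males at 4.04 to 7.56 CPM of Mki67. The difference of the transgene's effect between males and females was positive for all 10 genes, with a median of 0.84, and called for none, against 10.3% of all genes. Top2a had the largest value, 1.27 (0.08 to 2.47, adjusted p = 0.156), and Ccna2 the smallest p (0.99, 0.32 to 1.66, adjusted p = 0.0576). The effect of the amiR differed between the sexes in the opposite direction, with all 10 values negative (median −0.98) and none called, as for 0% of all genes. For 6 of them the unadjusted p was under 0.05, with Mki67 at −1.95 (−3.27 to −0.63, adjusted p = 0.29) and Top2a at −1.72 (−2.87 to −0.57, adjusted p = 0.29). How many of all genes had such an unadjusted p was not counted. Both differences share the vehicle-treated transgenic libraries. All 4 older transgenic mice of spinal cord were female, so sex and age cannot be told apart in part.

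In cortex none of the 10 genes was called in any of the 3 comparisons. All genes called made up 0.0247% between vehicle-treated transgenic and wild-type mice, 0.0197% between amiR and vehicle, and 1.12% between amiR-treated transgenic and wild-type mice. The counts of the 10 with an unadjusted p under 0.05 were 0, 0 and 3, without a count over all genes beside them, and DESeq2 called 0 in each. No gene had arms without overlap, against 0.577%, 0.562% and 4.73% of all genes. Mki67 was at 1.48, 1.28, 0.757, 1.21 and 1.07 CPM in the 5 wild-type libraries, at 0.646 to 5.72 CPM with vehicle (median 1.11) and at 0.637 to 2.45 CPM with the amiR (median 1.54) in transgenic mice. The difference between vehicle-treated transgenic and wild-type cortex was 0.38 for Mki67 (95% interval −0.47 to 1.24), 0.63 for Top2a (−0.31 to 1.56), 0.29 for Mcm6 (−0.27 to 0.86) and 0.04 for Pcna (−0.10 to 0.18). These intervals are wide except for Pcna, and those of Mki67 and Top2a reach above a log2 change of 1.

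A single cortex library stood apart: the 39-week female of the vehicle-treated transgenic arm, number 3, had Mki67 at 5.72 CPM where the next highest of its arm had 1.50, Top2a at 6.10 CPM (next 1.07), Cdk1 at 1.04 CPM (next 0.276), Ccnb1 at 1.25 CPM (next 0.581) and Rrm2 at 1.87 CPM (next 0.908). It also had the highest sum of oligodendrocyte precursor markers in cortex, 384 CPM, against 266 to 326 CPM in wild type. The highest cortex sums of microglia and macrophage (272 CPM), astrocyte (6796 CPM) and endothelial markers (333 CPM) were in the same arm, in libraries not named here. Those of T cell and neuronal markers were in the amiR-treated arm. The part of any of these cells in the values of library 3 was not tested. Without it, the difference between transgenic and wild-type cortex was −0.10 for Mki67 and 0.06 for Top2a, and that between amiR and vehicle was 0.34 for Mki67 and 0.03 for Top2a, where it had been −0.25 and −0.63 with it. In the amiR-treated arm the 3 females had Mki67 at 2.16 to 2.45 CPM and the 3 males at 0.637 to 0.916 CPM. How many of all genes had the sexes apart in that arm was not counted. The difference of the amiR's effect between the sexes was called for no gene of the 10 in cortex. The 3 genes with an unadjusted p under 0.05 between amiR-treated transgenic and wild-type cortex were Ccna2 (−0.24, −0.47 to −0.01, adjusted p = 0.251), Birc5 (−0.41, −0.79 to −0.04, adjusted p = 0.22) and Mcm6 (0.64, 0.07 to 1.21, adjusted p = 0.215), of which 2 were lower and 1 higher. Of the other cell cycle lists, Myc was the only gene called in cortex, 0.68 higher with the amiR than in wild type (adjusted p = 0.048), a call that was lost in 14 of 20 other settings, library size alone among them.

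In skeletal muscle all 10 genes were higher in vehicle-treated transgenic than in wild-type mice, by 1.18- to 5.20-fold (median 3.38-fold, log2 1.76). This was a tissue in which 50.5% of the 16949 genes tested were called (25.7% as higher) and the median log2 change of all genes was 0.01. For 9 of the 10, all except Pcna, the arms did not overlap, against 14.5% of all genes with the transgenic arm higher and 28.9% in either direction. The 10, their median and the 9 include Top2a, Cdk1 and Ccnb1, which passed the filter only through the transgenic arms. With scaling by library size alone, 87.7% of the called genes were higher where 50.9% were with TMM, and the median of all genes moved to 0.35. The median of the 10 genes lay 1.75 above that of all genes with TMM and 1.73 above it with library size alone.

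**Figure D4:**
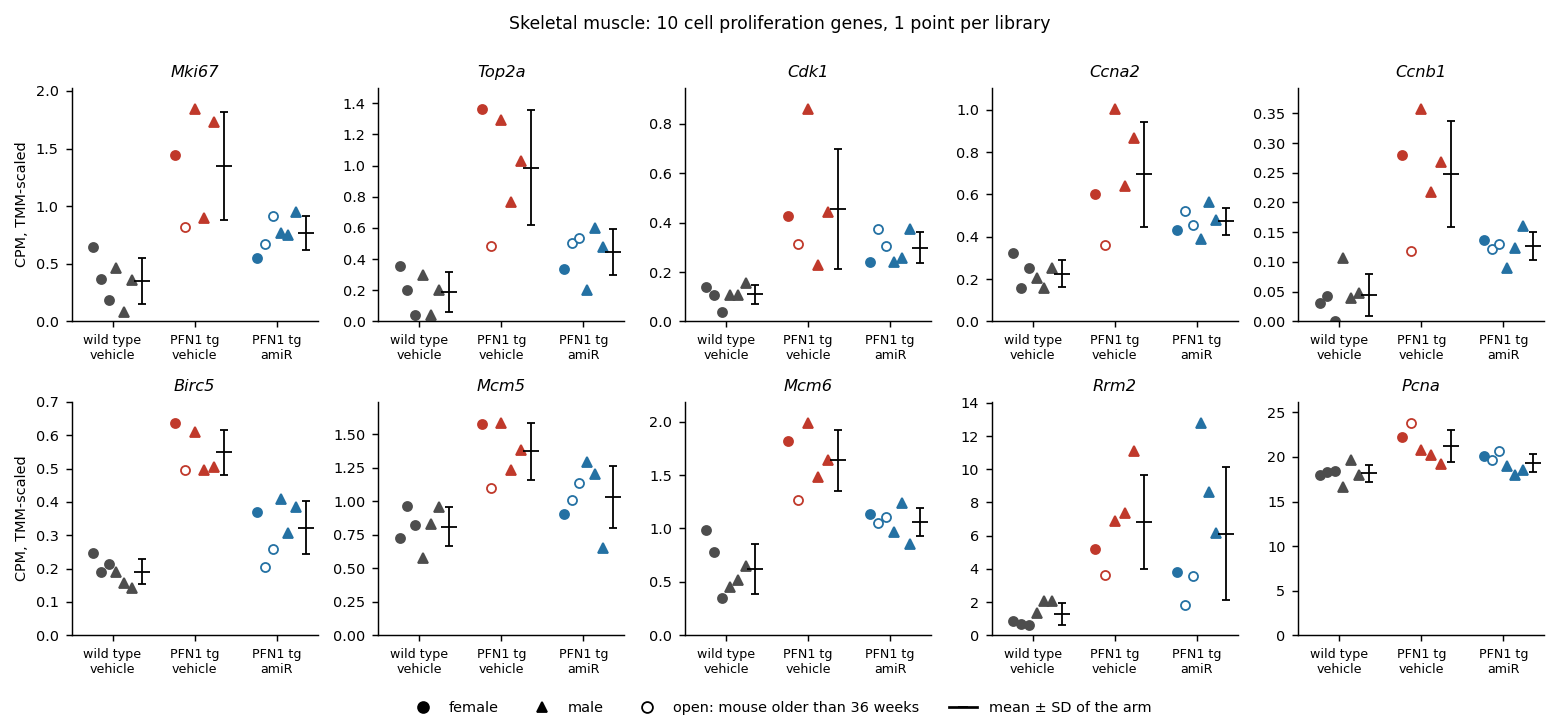
Levels of the 10 cell proliferation genes in skeletal muscle, in TMM-scaled CPM on a linear axis, 1 point per library by arm (circles female, triangles male, open points from mice older than 36 weeks), with the mean ± SD of each arm. Vehicle-treated transgenic libraries lie above wild-type ones for each gene but Pcna, where they overlap. The mean of the amiR-treated arm lies between those of the other arms for each gene. Its libraries overlap vehicle-treated ones except for Birc5 and Mcm6, and wild-type ones except for Cdk1 and Ccna2.

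Of the S phase genes, Rrm2 changed the most. It was at 0.878, 0.677 and 0.625 CPM in wild-type females and 1.36, 2.07 and 2.07 CPM in wild-type males. In vehicle-treated transgenic muscle it was at 5.17 and 3.62 CPM in the females and 6.85, 7.38 and 11.1 CPM in the males. The mean went from 1.28 ± 0.666 (SD, n = 6) to 6.83 ± 2.82 CPM (n = 5), a log2 change of 2.37 (SE 0.24, adjusted p = 9.55e-07). In both arms every male library was above every female one, and so it was with the amiR (12.8, 8.61 and 6.16 CPM in males against 3.81, 1.84 and 3.54 CPM in females), a pattern seen in the data and not tested by itself. The share of all genes whose sexes lay apart in these arms was not counted. Mcm6 was at 0.346 to 0.986 CPM in wild type (median 0.579) and at 1.82, 1.26, 1.99, 1.48 and 1.64 CPM in transgenic libraries, a change of 1.42 (SE 0.21, adjusted p = 4.43e-05). Mcm5 was at 0.573 to 0.963 CPM (median 0.827) and at 1.58, 1.10, 1.58, 1.23 and 1.38 CPM, a change of 0.76 (SE 0.18, adjusted p = 0.00239). Both helicase genes had every transgenic library above every wild-type one. Pcna was at 16.6 to 19.7 CPM (median 18.1) and at 22.2, 23.8, 20.8, 20.2 and 19.2 CPM, a change of 0.23 (SE 0.05, adjusted p = 0.00131), the smallest of the 10.

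The genes of the later cycle rested on few counts in wild-type muscle: 0 to 9 counts a library for Ccnb1, 3 to 10 for Cdk1 and 3 to 25 for Top2a. These 3 reached the level of the filter (0.107 CPM in at least 5 libraries) in 0, 2 and 4 wild-type libraries and in all 5 vehicle-treated ones, so they were tested only because of the transgenic arms. The other 7 passed on wild-type muscle alone, and each of these was higher in the vehicle-treated transgenic arm, by 0.23 to 2.37 on the log2 scale. Top2a was at 0.0396 to 0.354 CPM in wild type (median 0.203) and at 1.36, 0.486, 1.29, 0.766 and 1.03 CPM in vehicle-treated transgenic muscle, a change of 2.38 (SE 0.44, adjusted p = 0.000309). Cdk1 was at 0.0399 to 0.157 CPM (median 0.107) and at 0.425, 0.314, 0.859, 0.228 and 0.443 CPM, a change of 2.03 (SE 0.34, adjusted p = 0.000113). Every transgenic library was above the wild-type range for both genes. Ccnb1 was at 0 to 0.108 CPM (median 0.0409) and at 0.279, 0.118, 0.357, 0.217 and 0.268 CPM, a change of 2.37 (SE 0.40, adjusted p = 0.000144) that was 2.83 without wild-type number 4. Ccna2 was at 0.158 to 0.323 CPM (median 0.227) and at 0.361 to 1.00 CPM, a change of 1.59 (SE 0.25, adjusted p = 6.51e-05), while Exosc9 had 0.14 (adjusted p = 0.0816). Birc5 was at 0.141 to 0.246 CPM (median 0.191) and at 0.637, 0.494, 0.608, 0.497 and 0.505 CPM, a change of 1.52 (SE 0.20, adjusted p = 1.43e-05). Mki67 was at 0.0791 to 0.647 CPM (median 0.366) and at 1.44, 0.824, 1.84, 0.90 and 1.73 CPM. Its mean went from 0.352 ± 0.201 to 1.35 ± 0.468 CPM, a change of 1.92 (SE 0.36, adjusted p = 0.000301), without overlap.

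The wider cell cycle lists were mixed in muscle. Of 29 replication genes tested, 13 were higher and 7 lower, among the latter Tk1, thymidine kinase 1, from 2.11 ± 0.362 to 0.982 ± 0.0462 CPM (−1.11, adjusted p = 1.57e-05), and Mcm2 (−0.45, adjusted p = 0.00481). Cdt1, which licenses replication origins, rose by 1.59 (adjusted p = 6.2e-06). Of 36 mitosis genes, 20 were higher and 3 lower. Prc1, which bundles microtubules in the spindle midzone, rose by 3.15 (adjusted p = 6.7e-06) and Cenpf, a kinetochore protein, by 2.59 (adjusted p = 2.47e-05). The lower ones were Aurka, the kinase of spindle poles, from 6.57 ± 0.805 to 1.77 ± 0.296 CPM (−1.93, adjusted p = 8.61e-09), its activator Tpx2, from 4.25 ± 2.11 to 1.14 ± 0.231 CPM (−1.87, adjusted p = 6.62e-06), and Ube2c, an enzyme that marks mitotic cyclins for destruction (−0.81, adjusted p = 0.00418). Transcription factors had 5 of 12 higher and 0 lower, with E2f8 at 2.19 (adjusted p = 5.45e-05) and Myc at 1.13 (adjusted p = 0.0017), and G1 genes 4 of 8 higher and 1 lower. Of 12 inhibitors, 2 were higher and 6 lower. Cdkn1a, p21, went from 24.1 ± 9.05 to 198 ± 64.5 CPM (3.12, adjusted p = 3.34e-08) and Rb1, the retinoblastoma protein, rose by 1.42 (adjusted p = 1.21e-06), while Cdkn2b, p15, fell by 1.05 (adjusted p = 0.00021) and Ccng1 by 0.63 (adjusted p = 0.000138). With scaling by library size alone the counts were 19 higher and 3 lower for replication, 31 and 3 for mitosis, and 3 and 3 for the inhibitors, 8 and 0 for the transcription factors and 6 and 0 for the G1 genes. The lower call of G1 was thus lost, Mcm2 lost its call too (−0.11), and the splits of these lists moved with the scaling.

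Cell type markers moved in muscle too. All 10 macrophage markers were higher in vehicle-treated transgenic muscle (median 1.27), with sums of 9.56 to 35.7 CPM in wild type, 56.6 to 64.7 CPM with vehicle and 21.5 to 50.4 CPM with the amiR. Of 6 satellite cell markers, 4 were higher, Myf5, Calcr, Myod1 and Pax7, and the sums were 41.7 to 71.4, 79.6 to 162 and 49.8 to 113 CPM in the same order. Myod1, which makes up most of that sum, is also switched on in denervated muscle fibres. Mesenchymal markers had 4 of 6 higher (223 to 612, 609 to 1086 and 272 to 709 CPM), and all 3 T cell markers tested of 10 were higher, at sums of at most 1.26 CPM. Resting microglia markers had 5 of 8 higher (12.6 to 17.3 CPM in wild type, 17.8 to 24.0 CPM with vehicle). Of 6 neuroblast markers 2 were tested, Nes (1.45) and Sox11 (3.84), and both were higher, with sums of 43.4 to 57.9, 116 to 179 and 51.3 to 128 CPM in the same order of arms and Igfbpl1 at 0 in both transgenic arms. Endothelial markers had 3 of 7 lower and 0 higher (313 to 491, 327 to 384 and 352 to 490 CPM). All 6 markers of muscle fibres were lower, from 87354 to 122808 CPM to 43857 to 65513 CPM. Bone marrow markers summed to at most 5.72 CPM in muscle, with Elane at 0 in both vehicle-treated arms. The part of any of these cells in the rise of the proliferation genes was not tested.

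Between amiR and vehicle in transgenic muscle, in libraries that held 0 to 1 counts of the vector element, edgeR called none of the 10 genes, against 1.12% of all genes, and all 10 estimates were negative, with a median of −0.60 against 0.00 over all genes. For 8 of them, all but Cdk1 and Rrm2, the unadjusted p was under 0.05. The share of all genes at that unadjusted p, or with a negative estimate, was not counted. Birc5 came closest to the threshold, at 0.205 to 0.410 CPM with the amiR (median 0.337) and 0.494 CPM or more with vehicle, a difference of −0.76 (95% interval −1.17 to −0.36, adjusted p = 0.0541). Mcm6 was at 0.854 to 1.24 CPM (median 1.08), below the 1.26 CPM or more with vehicle, a difference of −0.64 (−1.08 to −0.21, adjusted p = 0.114). These 2 were the genes of the 10 whose arms did not overlap, against 2.33% of all genes, 1.37% with the amiR arm lower. DESeq2, run as an alternative, called both, Birc5 at an adjusted p of 0.0136 and Mcm6 at 0.0327. With scaling by library size alone edgeR called Birc5 (−0.90) and Pcna (−0.28), and with only the 2 arms in the model it called Mcm6 (−0.63, adjusted p = 0.0468). Over all genes, edgeR called 596 with library size alone, against 190 with TMM. The shares of all genes called by DESeq2 and with only the 2 arms are not set beside these calls.

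Mki67 was at 0.547 to 0.950 CPM with the amiR (median 0.759), a difference of −0.80 (−1.50 to −0.10, adjusted p = 0.204), and Top2a at 0.200 to 0.601 CPM (median 0.492), a difference of −1.15 (−2.01 to −0.30, adjusted p = 0.139). Both arms overlapped through the 39-week vehicle-treated female, number 2, which had the lowest Mki67 (0.824 CPM) and Top2a (0.486 CPM) of its arm. Rrm2 was at 1.84 to 12.8 CPM with the amiR (median 4.99), with a difference of −0.16 (−0.63 to 0.31). In the same libraries, 1 of 6 satellite cell markers was lower with the amiR, 2 of 6 fibre markers were higher and macrophage markers had a median difference of −0.65 with 0 of 10 called. Their part in the differences of the proliferation genes was not tested. Of the other cell cycle genes only Aurka was called, higher by 0.58 with the amiR (adjusted p = 0.0289), from 1.77 to 2.59 CPM. That call was lost in 9 of 20 other settings, among them the fit without the sex term and those without any of vehicle-treated numbers 1 to 4 or amiR-treated numbers 5 and 6.

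Compared with wild type, amiR-treated transgenic muscle had 8 of the 10 genes higher, with a median log2 change of 1.10 (2.15-fold) against 35.2% of all genes called (17.5% as higher). Cdk1, Ccnb1 and Top2a are among the 8 and were tested only because of the transgenic arms. Mcm5 (0.35, −0.02 to 0.71, adjusted p = 0.136) and Pcna (0.09, −0.02 to 0.19, adjusted p = 0.185) were not called. Rrm2 was higher by 2.21 (adjusted p = 3.6e-06), Ccnb1 by 1.49 (1.93 without wild-type number 4), Cdk1 by 1.47, Top2a by 1.22 (adjusted p = 0.0382), Mki67 by 1.12 (adjusted p = 0.0177), Ccna2 by 1.08, Mcm6 by 0.78 and Birc5 by 0.75. For Cdk1 and Ccna2 the arms did not overlap, against 7.52% of all genes with the treated arm higher and 14.4% in either direction. Top2a lost its call when any of numbers 2, 3, 5 and 6 of wild type or of the amiR arm was left out (1.02 to 1.26). With the RNA integrity number (RIN) as a covariate 4 of the 10 were called, with Mki67 at 0.90 (adjusted p = 0.124) and Top2a at 0.77 (adjusted p = 0.269). The share of all genes called with this covariate is not set beside that count. The RIN was 7.1 to 7.8 in wild-type and 7.6 to 8 in amiR-treated muscle. With library size alone all 10 were called, where 7247 of all genes were, against 5959 with TMM.

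**Figure D5:**
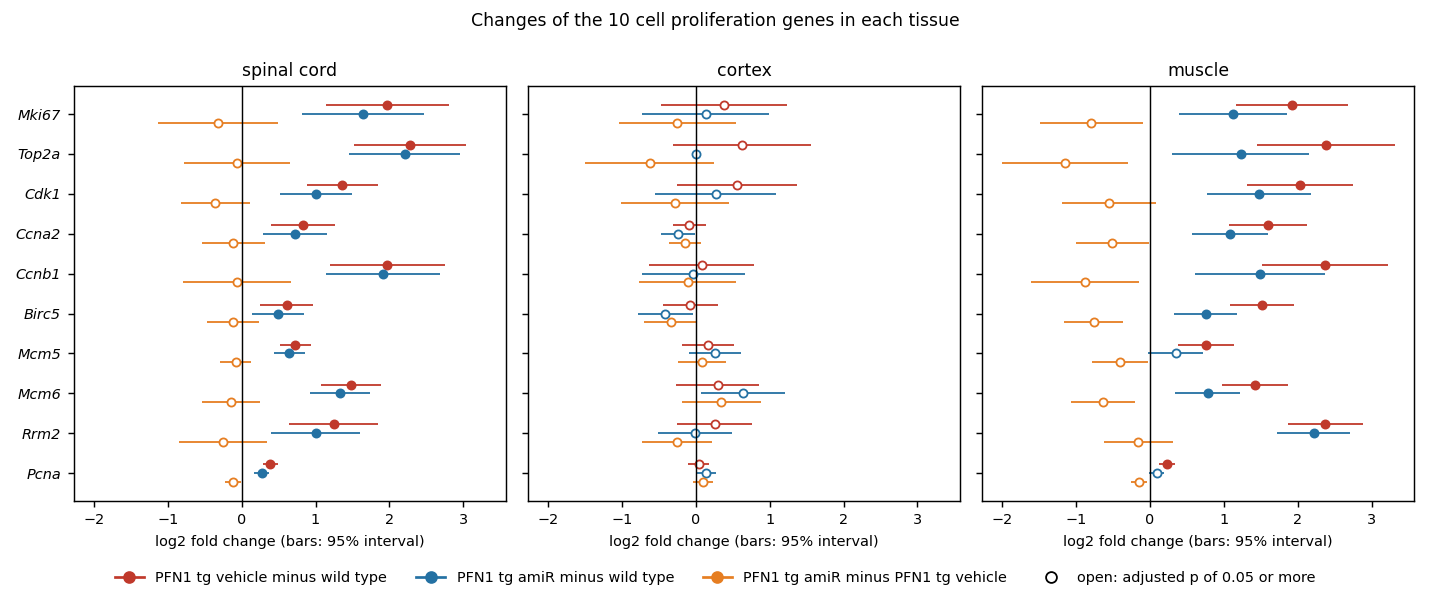
Log2 fold change of each of the 10 genes in spinal cord, cortex and muscle for the 3 comparisons, with 95% intervals, filled where the adjusted p is under 0.05. Values against wild type lie to the right of 0 in spinal cord and muscle, cortex values straddle 0, and the orange values of amiR against vehicle are open in all 3 tissues; Top2a in cortex has no interval between amiR-treated transgenic and wild-type mice, where its estimate is 0.00.

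The change with the transgene was compared between tissues in the joint model. Against cortex, spinal cord had a larger change for all 10 genes by estimate (median 0.93), called for 4: Ccnb1 (1.87, adjusted p = 0.00874), Mcm6 (1.17, adjusted p = 0.0127), Ccna2 (0.89, adjusted p = 0.0189) and Pcna (0.33, adjusted p = 0.0045). Of all genes 9.67% were called, 5.45% with the larger value in spinal cord. Top2a (1.61, 0.45 to 2.78, adjusted p = 0.0696) and Mki67 (1.56, 0.44 to 2.67, adjusted p = 0.0659) were not. The count was 10 without mice older than 36 weeks (Mki67 2.47, Top2a 2.74). That setting leaves out cortex library 3 among others. It also leaves out the older females of vehicle-treated transgenic spinal cord, the lowest of their arm for Mki67. A further fit, chosen after the data were seen, left out cortex library 3 and the 5 libraries over 20 CPM of marrow markers. The count was then 3, with Mki67 gained (1.80, adjusted p = 0.0279) and Ccna2 (0.66) and Mcm6 (1.04) lost. The shares of all genes called in these fits are not set beside the counts.

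Against cortex, muscle had a larger change for 9 of the 10, all but Pcna (0.21, adjusted p = 0.0501), with a median of 1.57 and 27.7% of all genes called, 15% with the larger value in muscle. The values were 2.31 for Ccnb1, 2.13 for Rrm2, 1.75 for Top2a (adjusted p = 0.0358), 1.69 for Ccna2, 1.60 for Birc5, 1.54 for Mki67 (adjusted p = 0.0492), 1.48 for Cdk1, 1.14 for Mcm6 and 0.60 for Mcm5. Mki67 and Mcm5 lost the call with RLE scaling (adjusted p = 0.0589 and 0.0708), and Mki67, Top2a and Cdk1 without the sex term (adjusted p = 0.173, 0.135 and 0.0953), while Pcna gained it with library size alone (0.49). Against spinal cord, muscle had a larger change for 3, Rrm2 (1.16, adjusted p = 0.0115), Birc5 (0.94, adjusted p = 0.00331) and Ccna2 (0.80, adjusted p = 0.0279), where 31% of all genes were called (16.5% with the larger value in muscle) and the median of the 10 was 0.29. The call of Rrm2 was lost without the sex term and without mice older than 36 weeks (0.85, adjusted p = 0.0561). The limit given above for Ccna2, exonic bases shared with Exosc9, holds for its differences between tissues as well. Mki67 and Top2a had intervals of −1.29 to 1.26 and −1.09 to 1.37 around −0.02 and 0.14 in this comparison, so these values do not show that the tissues changed alike. The effect of the amiR was called as different between tissues for none of the 10, either for spinal cord against cortex (0.0672% of all genes called) or for muscle against spinal cord (3.04%), with 1 gene at an unadjusted p under 0.05 in each, Pcna (−0.22) and Birc5 (−0.63).

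The genes whose level followed that of the 10 most closely between libraries were ranked by Pearson's r with the mean of the 10, after the mean of each arm was removed. In the 18 spinal cord libraries the highest were Hmmr (0.958), Ckap2l (0.954), Knl1, Dtl, Cenpf, Depdc1a, Prc1, Bub1b, Esco2 and Kif18b (0.912). In the 17 cortex libraries they were Iqgap3 (0.902), Bub1b, Prc1, Pbk, Kif19a, Tpx2, Uhrf1, Cd33, Spc25 and Esco2, and in the 17 muscle libraries Pclaf (0.837), Gm3608, Tedc1, Ppm1f, Pbk, St5, Myef2, Arhgef5, 0610030E20Rik and Sytl2. Of the top 100 genes, 28 (spinal cord), 20 (cortex) and 6 (muscle) were on the cell cycle lists, which made up 0.443%, 0.444% and 0.502% of all genes ranked. These correlations share libraries, depth and the outlying libraries named above and are a description.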

How the data were processed

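Poly(A) RNA of 52 mouse tissue samples was made into libraries with the Kapa mRNA HyperPrep kit and sequenced as read pairs on a NovaSeq instrument, per the labels' protocols. The authors deposited one table of RSEM expected counts per gene, not normalized; the submitters' processing notes name STAR 2.7.2d, DESeq2 1.34.0, RSEM 1.3.2, bcl2fastq 2.20 and the builds GRCm38 and GRCh38. The annotation release and the strand setting are not given in the sources used here. Rows other than mouse genes (vector elements, human PFN1, spike-ins) took 0.167% of the counts or less per library and were left out of the fits.

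Expected counts were rounded to whole numbers. Columns were matched to samples by library name and treatment was taken from the title. In R 4.3.3, each tissue was fitted with edgeR 4.0.16 (TMM scaling, filterByExpr by arm, quasi-likelihood F tests, two-sided, arm plus sex), with Benjamini-Hochberg adjustment over all genes tested and a threshold of 0.05. The genes tested numbered 20307 (spinal cord), 20278 (cortex) and 16949 (muscle). Differences between tissues came from a joint fit of 22316 genes, and those between sexes from arm by sex terms. Intervals are 95%, from the standard error and the t quantile at each gene's degrees of freedom. Code was tested on simulated data. Alternatives were RLE scaling, library size alone, no filter, no sex term, RIN as a covariate, a replicate block, the 2 compared arms only, leaving out older mice, libraries of conflicting names or each library, and DESeq2 1.42.0. Left out after the data were seen were spinal cord libraries rich in marrow markers.

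The members and all gene lists were chosen with earlier results of these data known. The text names all 10 members, and of each other list up to 4 called genes with the smallest adjusted p per comparison, except 1 gene that is not reported here; Racgap1, Ccne1, Mcm2, Ube2c, Exosc9 and the genes named as markers were named after their values were seen. Exon lengths are unions of GENCODE M21 exons. Ccnb1 and Pcna have processed copies, Ccnb1-ps at 0.505% and Pcna-ps2 at 0.749% of their gene's counts, and how reads were split between them is uncertain. Counts were not from unique molecules, so depth adds counting error that the spread between libraries includes.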

Additional observations from a re-analysis of the deposited data

Results flagged for a closer look

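A library was listed here where it lay far from the others of its group of 4 to 10 by Dixon's 95% criterion, which chance alone meets in about 1 of 20 groups. Of 90 groups of member values, 7 held such a library, and of 63 groups of summed lists, 4 did. In vehicle-treated transgenic cortex, library 3 was the highest for Mki67 (5.72 CPM, next 1.50), Top2a (6.10 CPM, next 1.07), Cdk1 (1.04 CPM, next 0.276), Ccnb1 (1.25 CPM, next 0.581) and Rrm2 (1.87 CPM, next 0.908). The sum of the 10 genes was 62.7 CPM in the same library. For Birc5 in spinal cord, wild-type library 2 was the lowest of its arm (0.904 CPM, next 1.33) and vehicle-treated transgenic library 5 the highest of its arm (3.54 CPM, next 2.20). That transgenic library also had the highest summed bone marrow markers, 83.2 CPM. Wild-type muscle library 3 had 4.21 CPM of the same markers, and amiR-treated spinal cord library 2 had 529 CPM of summed muscle fibre markers.

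Differences between tissues or sexes in the effect of the transgene or of the amiR were tested 110 times on the 10 genes. Of these, 16 were called, all of them differences between tissues in the change with the transgene. Comparisons of wild-type levels between tissues are not among them. On the log2 scale, the change was larger in spinal cord than in cortex for Ccna2 (0.89), Ccnb1 (1.87), Mcm6 (1.17) and Pcna (0.33). It was larger in muscle than in spinal cord for Ccna2 (0.80), Birc5 (0.94) and Rrm2 (1.16). It was larger in muscle than in cortex for Mki67 (1.54), Top2a (1.75), Cdk1 (1.48), Ccna2 (1.69), Ccnb1 (2.31), Birc5 (1.60), Mcm5 (0.60), Mcm6 (1.14) and Rrm2 (2.13).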

How the results depend on the processing

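Of 246 counts of called members under other settings, 240 stayed within 1.5 times the reported one and 6 did not. Of 2459 member changes, 2269 kept their direction and side of the threshold, 46 lost the call, 23 gained one and 121 changed sign, of which 117 were called in neither fit. The other 4 came with library size alone in the levels of wild-type tissues: muscle minus spinal cord was −1.19 for Mcm6, −0.0094 for Rrm2 and −1.17 for Pcna, and muscle minus cortex −0.88 for Pcna. Between amiR and vehicle in muscle the count was 0, but 2 with library size alone, 1 with only the 2 arms compared and 2 with DESeq2. For amiR-treated transgenic against wild-type muscle it was 8, but 4 with RIN as a covariate. For the transgene's effect in spinal cord against cortex it was 4, but 10 without mice older than 36 weeks. The causes were not tested.

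Leaving out each library in turn gave 0 to 1 members called between amiR and vehicle in spinal cord, 9 to 10 between amiR-treated and wild-type cord, and 7 to 8 in muscle. It gave 10 between vehicle-treated transgenic and wild-type mice in spinal cord and muscle, and 0 in the 3 comparisons of cortex and between amiR and vehicle in muscle. With a replicate block the counts were 10, 0 and 10 in spinal cord, 0, 0 and 0 in cortex, and 10, 0 and 7 in muscle. The labels do not say that equal numbers pair the samples, and their deviations correlated at −0.38 to 0.27, −0.46 to 0.49 and −0.28 to 0.36 in the 3 tissues, with 0 of 18, 1 of 17 and 1 of 17 libraries closest to their own number, so no pairing was used.

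Calls over all genes moved more. Between amiR and vehicle in spinal cord they were 1037, with 41 to 2229 under other settings (41 without the libraries rich in marrow markers, 96 without older mice, 2229 with DESeq2) and 242 to 2539 without 1 library. In muscle they were 190, with 1 to 969 under other settings and 0 to 344 without 1 library. In cortex they were 228 for amiR-treated against wild-type mice, with 9 to 1381, 4 between amiR and vehicle, with 0 to 364, and 5 between the vehicle-treated arms, with 4 to 9. The differences between tissues in the amiR's effect were 15 (1 to 22) for spinal cord against cortex and 678 (139 to 881) for muscle against spinal cord. With all mice, 0 genes were called for a difference between the sexes in the amiR's effect in spinal cord. Without older mice 1 female was left in each transgenic arm there, so no count is given for that fit. With library size alone the share of called genes that were higher moved from 51.2% to 72.9% (transgene) and from 57.2% to 40.3% (amiR against vehicle) in spinal cord, and from 50.9% to 87.7% and from 68.4% to 12.6% in muscle. Against wild type, the amiR arm moved from 57.1% to 70.2% in spinal cord, from 59.2% to 45.8% in cortex and from 49.8% to 85.4% in muscle. For the transgene's effect the share moved from 56.3% to 79.5% (38.7% with RLE) for spinal cord against cortex, from 53.2% to 78.6% for muscle against spinal cord and from 54% to 87.8% (42.4% with RLE) for muscle against cortex, and for the amiR's effect from 57.4% to 17.4% for muscle against spinal cord. Library size alone moved the median of all genes from 0.01 to 0.35 (transgene), 0.00 to −0.13 (amiR against vehicle) and 0.00 to 0.20 (amiR arm against wild type) in muscle. Low counts in muscle limit Ccnb1, Cdk1 and Top2a.

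Sign changes of values called in neither fit were as follows, on the log2 scale. With DESeq2, amiR-treated minus wild-type cortex gave Top2a −0.021. With RIN, amiR-treated minus wild-type cortex gave Top2a −0.24. With RLE scaling, amiR-treated minus wild-type cortex gave Top2a −0.0047. Wild-type muscle minus spinal cord then gave Mcm6 −0.0013. With library size alone, amiR-treated minus wild-type cortex gave Rrm2 0.0071. The transgene effect, muscle minus spinal cord then gave Mki67 0.17, Mcm6 0.16 and Pcna 0.085. The amiR effect, muscle minus spinal cord then gave Rrm2 −0.0046. With the marrow sum as a covariate, amiR minus vehicle in spinal cord gave Top2a 0.047 and Ccnb1 0.042. With no filter, amiR-treated minus wild-type cortex gave Top2a −0.0075. Without the sex term, amiR-treated minus wild-type cortex gave Ccnb1 0.075 and Rrm2 0.055. The amiR effect, muscle minus spinal cord then gave Pcna 0.0038. The amiR effect, spinal cord minus cortex then gave Ccna2 −0.018, Ccnb1 −0.0067 and Rrm2 −0.13. Wild-type muscle minus cortex then gave Cdk1 0.082. With only the 2 arms compared, amiR-treated minus wild-type cortex gave Rrm2 0.0032. With the replicate block, amiR minus vehicle in cortex gave Mki67 0.022. AmiR-treated minus wild-type cortex then gave Top2a −0.15 and Ccnb1 0.061. Vehicle-treated transgenic minus wild-type cortex then gave Birc5 0.057 and Pcna −0.041. Without cortex library 3 of the vehicle arm and the marrow-rich libraries, the transgene effect, muscle minus spinal cord gave Mki67 0.23 and Mcm6 0.20. The amiR effect, muscle minus spinal cord then gave Rrm2 −0.26. The amiR effect, spinal cord minus cortex then gave Mki67 0.0045 and Ccnb1 −0.0026. Wild-type muscle minus cortex then gave Cdk1 0.020. Without the marrow-rich libraries, amiR minus vehicle in spinal cord gave Mki67 0.35, Top2a 0.46, Ccna2 0.24, Ccnb1 0.21, Birc5 0.12, Mcm5 0.042, Mcm6 0.12 and Rrm2 0.12. Without older mice, amiR minus vehicle in cortex gave Mki67 0.35, Top2a 0.0027, Cdk1 0.19, Ccnb1 0.15 and Rrm2 0.069. The male minus female amiR effect in cortex then gave Ccnb1 −0.21, Rrm2 −0.42 and Pcna −0.032. AmiR-treated minus wild-type cortex then gave Top2a −0.045, Ccnb1 0.028 and Rrm2 0.055. Vehicle-treated transgenic minus wild-type cortex then gave Mki67 −0.12, Top2a −0.047, Ccnb1 −0.13 and Rrm2 −0.014. The male minus female transgene effect in cortex then gave Mki67 0.44, Top2a 1.14, Ccna2 0.0082, Rrm2 0.20 and Pcna 0.088. The male minus female amiR effect in muscle then gave Mki67 0.52, Top2a 0.71 and Mcm5 0.36. The male minus female transgene effect in muscle then gave Top2a −0.28, Cdk1 −0.078 and Mcm5 −0.046. The male minus female transgene effect in spinal cord then gave Birc5 −0.057, and in muscle and spinal cord such values rest on 1 female in each transgenic arm. The transgene effect, muscle minus spinal cord then gave Top2a −0.12. The amiR effect, muscle minus spinal cord then gave Pcna 0.011. The amiR effect, spinal cord minus cortex then gave Top2a −0.46, Ccna2 −0.35, Ccnb1 −0.59, Birc5 −0.088 and Rrm2 −0.64. Wild-type muscle minus cortex then gave Cdk1 0.019. Without the 4 libraries of conflicting names, amiR minus vehicle in spinal cord gave Mki67 0.13, Top2a 0.19, Ccna2 0.22, Birc5 0.039 and Mcm5 0.024. Leaving out 1 library at a time, amiR minus vehicle in cortex gave Ccnb1 −0.28 to 0.21, Cdk1 −0.43 to 0.18, Mki67 −0.44 to 0.34, Rrm2 −0.36 to 0.0053 and Top2a −0.85 to 0.026. AmiR-treated minus wild-type cortex gave Ccnb1 −0.23 to 0.11, Mki67 −0.033 to 0.28, Rrm2 −0.065 to 0.12 and Top2a −0.15 to 0.17. Vehicle-treated transgenic minus wild-type cortex gave Birc5 −0.16 to 0.017, Ccnb1 −0.22 to 0.19 and Mki67 −0.10 to 0.54. AmiR minus vehicle in spinal cord gave Birc5 −0.19 to 0.062, Ccna2 −0.25 to 0.020, Ccnb1 −0.31 to 0.13, Mcm5 −0.12 to 0.0035 and Top2a −0.32 to 0.092.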
